A study of Mus musculus with 7 samples.

Results

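Sorted intestinal epithelial cells with a medium level of the surface protein CD24 were compared with cells that had a high level of it, on 4 of the 7 arrays of a mouse expression study. The members were chosen by their labels: 2 arrays of CD24 medium cells and 2 arrays of CD24 high cells, numbered 1 and 2 in each group. Both groups came from Dll1-EGFP-ires-CreERT2 mice, in which the promoter of the Notch ligand gene Dll1 drives green fluorescent protein (GFP) together with a Cre recombinase that tamoxifen activates. Both were also gated on high GFP, so the allele and the GFP gate are shared and the CD24 gate is what sets the groups apart. A sorted fraction is defined by promoter activity and a surface protein, not by 1 cell type. The age and sex of the mice, any treatment, and how many animals made up a sample are not given in the sources used here. The other 3 arrays of the series were 2 of CD24 low cells from the same kind of mice and 1 of GFP high cells from Lgr5-EGFP-ires-CreERT2 mice. They entered the fit so that all groups shared 1 estimate of the spread, and they counted in the filter and choice of probes. For some genes CD24 medium is also compared with CD24 low.

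Enteroendocrine cells and Paneth cells are both secretory cells of the intestinal epithelium and descend from progenitors that express the transcription factor Atoh1 and Notch ligands. Enteroendocrine cells pass through a brief stage marked by Neurog3, then store peptide hormones or serotonin in dense granules and release them on stimulation. Paneth cells sit at the crypt base, release antimicrobial defensins and lysozyme into the lumen, and supply neighbouring stem cells with Wnt, EGF and Notch signals.

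By the brightest probe of each gene, CD24 medium cells carried more RNA of many enteroendocrine genes, among them the Neurog3-stage transcription factors, Chgb, Tac1 and Tph1. CD24 high cells carried far more RNA of Paneth granule genes. Of 22 measured enteroendocrine transcription factors 15 were higher in CD24 medium and 0 lower. Of the 22, 11 were well above background on neither CD24 high array and 0 on neither CD24 medium array. Those 11 were kept by their signal on other arrays, which limits what the count of 0 lower shows. The median difference of these factors was 2.46, or 1.69 with only probes well above background on all 4 arrays. Of 10 measured alpha-defensins 9 were lower, by about 6 log2 units at the median, and all 15 measured Paneth granule genes were lower. The hormones (4 higher and 2 lower of 13), the exocytosis genes (6 higher of 24) and the Paneth regulators (7 lower of 21) were less uniform. Genes of DNA replication and mitosis were mostly higher in CD24 medium, and Wnt feedback genes mostly lower. In bulk RNA, fewer cells of a type and less RNA per cell cannot be told apart.

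Each array held Cy3-labelled RNA of sorted cells (100 ng of total RNA before amplification) and Cy5-labelled RNA of whole mouse small intestine as a common reference. Levels are given as the log2 ratio of sorted cells to whole small intestine, so that 0 is the level of the reference. Values are given for replicate 1 and then replicate 2, and a difference is CD24 medium minus CD24 high in log2 units with its standard error. Replicate 1 of both groups lay on 1 slide, scanned in 1 run, and replicate 2 of both on another, so that a difference within a number is also a difference within a slide. The share of gene spots well above background in the sample channel was 44.4% and 42.5% on the CD24 high arrays and 55.1% and 54.5% on the CD24 medium arrays. No gene spot was saturated, and 69 and 425 outlier spots were left out on the CD24 high arrays and 71 and 82 on the CD24 medium arrays. Ratios of the 2 arrays of a group correlated across genes at r = 0.921 for CD24 high and 0.940 for CD24 medium, against 0.598 to 0.698 between arrays of different groups; genes are not independent replicates. The series calls the replicates biological but ties none to an animal, so the p-values measure the spread between these samples. With 2 arrays a group, their number limits the precision.

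Of 17537 genes tested, 1318 (7.52%) were higher in CD24 medium and 2335 (13.3%) lower at a limma adjusted p under 0.05 (Benjamini-Hochberg over all genes). The median difference of all genes was 0.01. Beyond 4-fold, 127 genes were higher and 409 lower. Of the 3653 called genes, 3638 had replicate values that did not overlap between the groups. With 2 arrays a group a call mostly needs such values, so this count is no separate support. The split depended on the scaling: with the scanner software's own processed signals 57.6% of the calls were higher, and with the sample channel alone 53.7%, against 36.1% here, while the median of all genes moved to 0.21 with the processed signals. The counts also depended on every array. They were 817 higher and 1713 lower without CD24 high replicate 1, and 358 and 1482 without CD24 high replicate 2. They were 539 and 953 without CD24 medium replicate 1, and 328 and 933 without CD24 medium replicate 2. A total of 1009 genes kept their call whichever of the 4 arrays was left out.

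**Figure D1:**
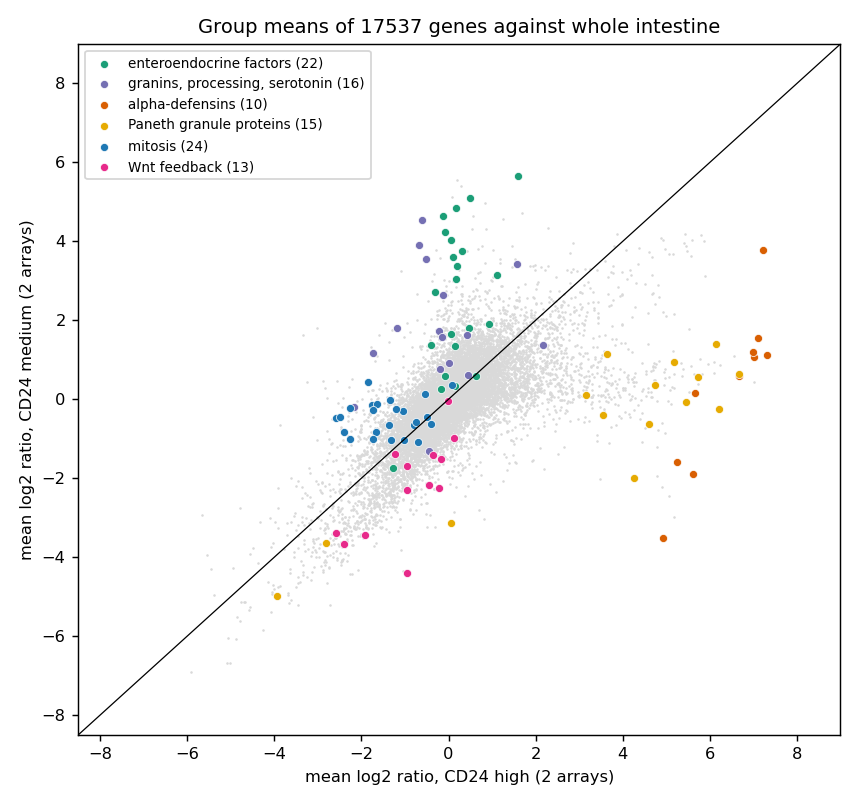
Mean log2 ratio to whole small intestine of 17537 genes (grey points) in CD24 high cells (horizontal axis) and CD24 medium cells (vertical axis), 2 arrays each, with members of 6 gene lists in colour and the line of equality. Alpha-defensins and Paneth granule genes lie to the right of the line and enteroendocrine factors and granins mostly above it.

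The sort marker and the reporter gene were read first. Cd24a, which encodes CD24, stood at 3.34 and 3.47 on the CD24 high arrays and at 0.88 and 0.75 on the CD24 medium arrays. This follows from the gate and is a check of the labels, not a result. Dll1, whose promoter drives the reporter, stood at 0.61 and -0.04 in CD24 high and at 2.81 and 2.53 in CD24 medium, a difference of 2.39 ± 0.24 (adjusted p = 0.00177). Both groups had been gated on high GFP, yet the Dll1 values of the groups did not overlap. Within slide 1 the difference was 2.21 and within slide 2 it was 2.58. On the CD24 low arrays Dll1 stood at 2.56 and 2.52. Atoh1, the factor that commits progenitors to the secretory fate, stood at 0.98 and 0.31 in CD24 high and 1.21 and 0.37 in CD24 medium, and its difference of 0.14 ± 0.33 did not pass (adjusted p = 0.788). Lgr5, a marker of crypt base stem cells, stood at 1.36 and 1.31 in CD24 high and at -0.66 and -0.54 in CD24 medium, lower by 1.93 log2 units (difference -1.93 ± 0.20, adjusted p = 0.00187).

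The early enteroendocrine cascade is led by Neurog3, the factor that starts the endocrine fate. Neurog3 stood at 0.70 and 0.30 on the CD24 high arrays and at 4.86 and 5.32 on the CD24 medium arrays, a difference of 4.59 ± 0.75 (adjusted p = 0.00925). Both CD24 medium arrays were above both CD24 high arrays, with differences of 4.16 within slide 1 and 5.02 within slide 2. Rcor2, a corepressor subunit, went from 0.37 and 0.25 to 3.40 and 4.12, and Sox4 from 0.31 and 0.01 to 2.80 and 3.30. Several factors were not well above background on either CD24 high array, and for these only a lower bound of the fold is given, from the sample channel, which is open to dye bias; no fold is given where that bound exceeds the fold of the ratios themselves. Pax4, which acts in several endocrine lineages, stood at 0.22 and 0.10 in CD24 high and at 4.58 and 5.11 in CD24 medium (higher, adjusted p = 0.00533). Rfx6, which acts in endocrine differentiation, stood at -0.24 and 0.01 against 4.15 and 5.12, at least 13.7-fold higher (adjusted p = 0.00259), and its second probe also passed. The zinc finger factors Insm1, Myt1 and St18 were at least 15.8-fold, 10.6-fold and 9.52-fold higher. Neurod1, a direct target of Neurog3, was at least 4.74-fold higher. Of the 11 early members measured, 10 passed and Rfx3 did not (adjusted p = 0.0679). Their median difference was 3.50, or 3.41 with 7 members at their bound.

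The factors of subtype and maturation were less uniform. Nkx2-2 stood at 2.82 and 0.39 in CD24 high and at 5.47 and 5.82 in CD24 medium, so the CD24 high arrays differed from each other by more than 2 log2 units while both CD24 medium arrays were higher (4.04 ± 0.86, adjusted p = 0.0219). Isl1, a LIM homeodomain factor of several hormone lineages, stood at 0.38 and 0.00 in CD24 high and at 3.07 and 3.71 in CD24 medium (3.20 ± 0.26, adjusted p = 0.000772). Isl1 was also 3.36 log2 units above CD24 low (adjusted p = 0.0135), 1 of 20 genes, or 0.114% of those tested, with higher values in CD24 medium than in CD24 low. Of the 1318 genes higher than in CD24 high, 3 were also higher than in CD24 low. Neurog3, Pax4, Insm1, Chgb and Tph1 did not pass against CD24 low (limma adjusted p = 0.365, 0.230, 0.268, 0.429 and 0.544). Against CD24 high, Mnx1 was at least 2.58-fold and Pax6 at least 1.98-fold higher, and Fev, a factor of serotonin cells, was higher by 1.35 ± 0.37 (adjusted p = 0.0456). Etv1, Foxa1, Foxa2, Pdx1 and Prox1 did not pass, with differences from -0.45 for Prox1 to 1.77 for Etv1. Of 11 measured factors in this group 5 were higher and 0 lower, with a median of 1.18. Over both groups, 8 of the 15 calls were kept whichever array was left out: Isl1, Mnx1, Myt1, Neurod1, Pax4, Rcor2, Rfx6 and St18. Neurog3, Insm1, Sox4, Runx1t1, Nkx2-2, Fev and Pax6 each lost it without at least 1 array.

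**Figure D2:**
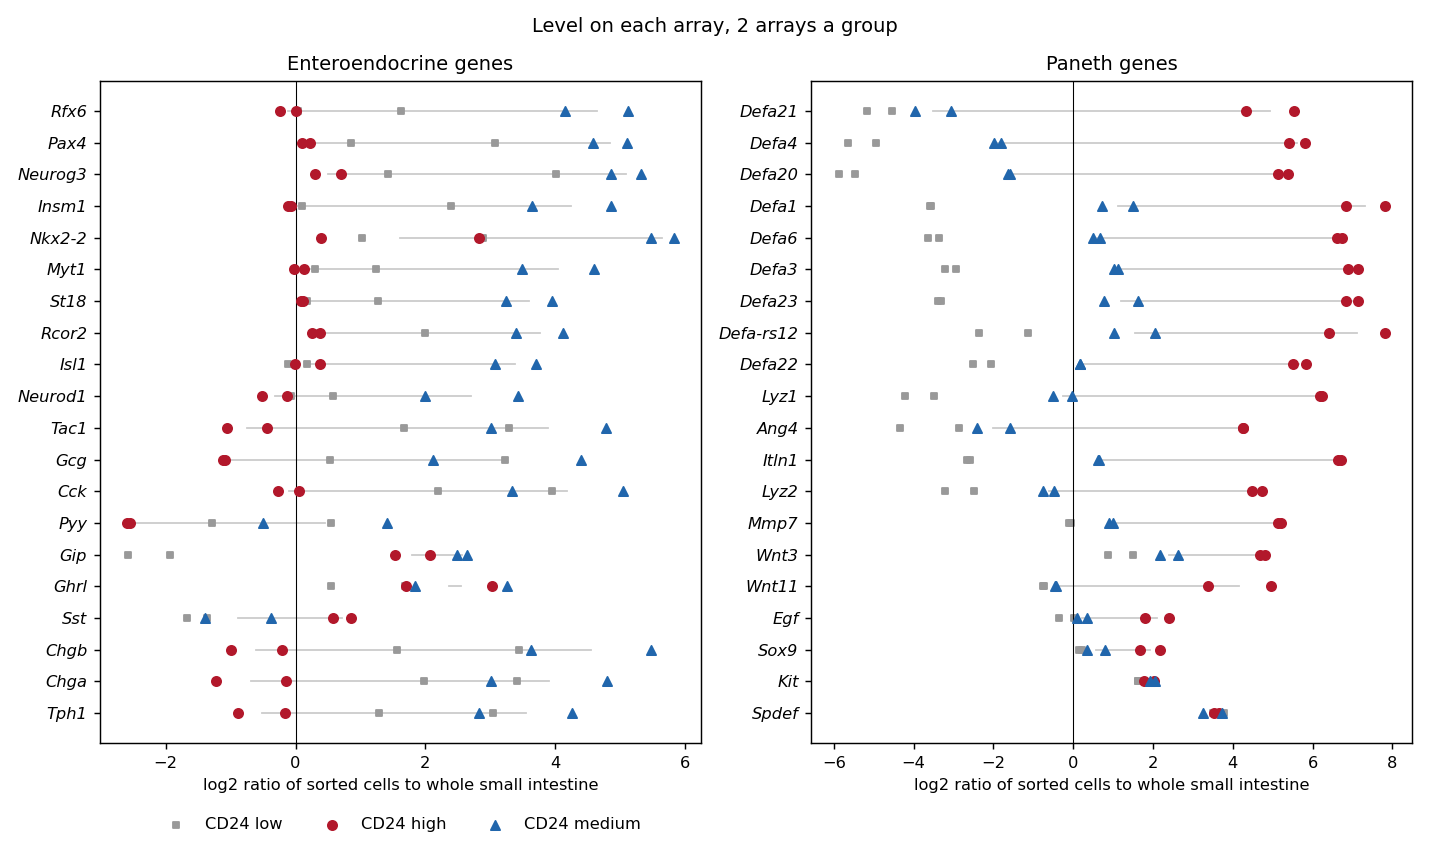
Log2 ratio to whole small intestine on each array of CD24 high (circles), CD24 medium (triangles) and CD24 low (squares) for enteroendocrine genes (left) and Paneth genes (right). Grey lines join the means of CD24 high and CD24 medium. The CD24 medium triangles lie to the right of the circles for Rfx6, Chgb and Tac1 and to the left of them for the defensins, lysozymes and Wnt ligands, while Ghrl, Kit and Spdef overlap.

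Peptide hormone genes split by hormone. Tac1, which encodes substance P, stood at -1.05 and -0.44 in CD24 high and at 3.01 and 4.78 in CD24 medium (4.64 ± 0.70, adjusted p = 0.00698). Gcg, the proglucagon gene of GLP-1 cells, stood at -1.11 and -1.09 against 2.12 and 4.40 (4.36 ± 0.98, adjusted p = 0.0259). Cck, cholecystokinin, stood at 0.06 and -0.27 against 3.33 and 5.04 (4.29 ± 0.70, adjusted p = 0.00912), and Pyy, peptide YY, at -2.59 and -2.55 against -0.50 and 1.41 (3.02 ± 0.75, adjusted p = 0.034). In all 4 genes the CD24 medium arrays differed from each other by over 1.5 log2 units and still lay above both CD24 high arrays. Of these calls only that of Tac1 was kept whichever array was left out. Within slide 1 the differences of Tac1, Gcg, Cck and Pyy were 4.06, 3.23, 3.27 and 2.09, and within slide 2 they were 5.22, 5.49, 5.31 and 3.96.

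The other hormones did not follow these 4. Sst, somatostatin, stood at 0.86 and 0.57 in CD24 high and at -1.39 and -0.38 in CD24 medium, lower with a difference of -1.60 ± 0.33 (adjusted p = 0.0201). Gip, the incretin of K cells, stood at 2.06 and 1.53 in CD24 high and at 2.49 and 2.64 in CD24 medium, and did not pass (0.77 ± 0.28, adjusted p = 0.0983). The CD24 low arrays held Gip at -2.58 and -1.93, and Gip was 4.82 log2 units higher in CD24 medium than there (adjusted p = 0.0034). Tac1, Gcg, Cck and Pyy did not pass against CD24 low (limma adjusted p = 0.548, 0.723, 0.669 and 0.801). On the CD24 low arrays Tac1 stood at 1.66 and 3.29, Gcg at 0.54 and 3.22, Cck at 2.20 and 3.95, and Pyy at -1.28 and 0.55. Ghrl, ghrelin, stood at 1.71 and 3.02 against 1.84 and 3.26, so the groups overlapped. Sct, secretin, stood at 1.47 and 1.53 against 1.95 and 2.76 and did not pass (adjusted p = 0.0663). Nts, neurotensin, stood at -2.81 and -2.51 against -2.52 and 1.51, high on 1 CD24 medium array alone. Gal, galanin, was called lower by a probe that holds a base stretch described further on. Of 13 measured hormone genes 4 were higher and 2 lower, with a median of 0.86, or 0.40 without CD24 medium replicate 2.

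Granins are acidic proteins that help to form dense secretory granules. Chgb stood at -0.999 and -0.21 in CD24 high and at 3.62 and 5.48 in CD24 medium (5.15 ± 0.78, adjusted p = 0.00698), and Chga at -1.22 and -0.14 against 3.02 and 4.79 (4.59 ± 0.71, adjusted p = 0.00771). Both CD24 medium arrays lay above both CD24 high arrays for both genes. Scg3 was at least 6.51-fold higher (adjusted p = 0.0132), and Pcsk1n, which encodes an inhibitor of the prohormone convertase PCSK1, was higher by 1.21 ± 0.34 (adjusted p = 0.0476). Scg5, Resp18 and Scg2 did not pass. Among processing enzymes, Cpe, carboxypeptidase E, stood at -1.39 and -0.97 against 0.92 and 2.69 (2.98 ± 0.71, adjusted p = 0.0301), and Pcsk1 at 1.67 and 1.48 against 2.78 and 4.06 (1.84 ± 0.47, adjusted p = 0.0384). Pam, the amidating enzyme, was called lower at -0.86 ± 0.22 (adjusted p = 0.0359) but turned to 0.69 with the sample channel alone, and it was well above background on neither CD24 high array. Serotonin synthesis needs Tph1, which stood at -0.89 and -0.16 against 2.83 and 4.25 (4.06 ± 0.67, adjusted p = 0.0097), and Ddc, at -1.61 and -1.86 against 0.57 and 1.79 (2.92 ± 0.54, adjusted p = 0.0134). Gch1, which makes the cofactor of Tph1, was higher by 1.98 ± 0.48 (adjusted p = 0.0315), while the vesicular amine transporters Slc18a1 (-0.79 ± 0.40) and Slc18a2 (0.15 ± 0.35) did not pass. Of 16 measured genes in the group 9 were higher and 1 lower, with a median of 1.90, or 1.81 with 4 members at their bound. The median was 1.11 without CD24 medium replicate 2 and 3.20 with the processed signals. The calls of Chga, Chgb and Tph1 were the 3 kept whichever array was left out.

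Promoters of several endocrine genes are known to carry the cAMP response element TGACGTCA, which reads the same on both strands. It was searched in the 250 bases before the start of each gene, in RefSeq promoter sequences of build GRCm38.p6. Of all 32851 promoters 508 (1.55%) held it, and of the 11437 measured genes with a promoter sequence 325 (2.84%) did. It was found in 3 of 14 members of the granin, processing and serotonin group (Chgb, Pcsk1 and Scg2), in 1 of 17 enteroendocrine factors (Pax6), in 1 of 13 hormones (Sst), in 0 of 17 exocytosis genes, in 0 of 4 alpha-defensins and in 0 of 13 Paneth granule genes. The 5 stretches are shown because they belong to genes of opposite behaviour: Chgb, Pcsk1 and Pax6 were higher in CD24 medium, Scg2 did not pass, and Sst was lower. Each is 60 bases, written 5′ to 3′ on the gene's strand, with the element in capitals. They lie at chr2:132781544-132781603 (Chgb, + strand), chr13:75089753-75089812 (Pcsk1, +), chr1:79440061-79440120 (Scg2, -), chr2:105668794-105668853 (Pax6, +) and chr16:23890859-23890918 (Sst, -).
Chgb: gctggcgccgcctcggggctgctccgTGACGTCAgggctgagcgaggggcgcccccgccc
Pcsk1: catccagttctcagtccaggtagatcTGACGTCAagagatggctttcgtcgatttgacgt
Scg2: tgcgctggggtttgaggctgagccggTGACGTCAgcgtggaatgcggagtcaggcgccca
Pax6: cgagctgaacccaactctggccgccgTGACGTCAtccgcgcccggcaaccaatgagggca
Sst: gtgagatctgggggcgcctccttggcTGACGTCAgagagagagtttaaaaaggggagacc
The first base of the element lies 72, 78, 68, 76 and 48 bases before the start of Chgb, Pcsk1, Scg2, Pax6 and Sst. A match describes the letters only, and binding was not measured.

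Regulated exocytosis uses SNARE proteins, complexins that hold primed vesicles, and synaptotagmins that sense calcium. Cplx2, a complexin, stood at -0.41 and -0.36 in CD24 high and at 2.44 and 3.57 in CD24 medium (3.39 ± 0.52, adjusted p = 0.00732). The 3 further probes of Cplx2 gave 1.51, 1.92 and 1.18, and the last of these did not pass. Unc13a, a vesicle priming factor, was at least 4.2-fold higher. Syp, synaptophysin, was higher (adjusted p = 0.0325) but well above background on neither CD24 high array, and Stx1a and Sytl4 were higher by 1.32 ± 0.33 and 1.28 ± 0.34. Of 24 measured members 6 were higher and 0 lower, and 9 were well above background on neither CD24 high array. The median was 0.74, or 0.65 with 8 members at their bound. That median moved to 0.30 in the sample channel, to 1.64 with processed signals, to 1.14 without CD24 medium replicate 1 and to 0.47 without replicate 2, and only the calls of Cplx2 and Syt13 were kept whichever array was left out. The neuronal SNARE genes Snap25 (0.61 ± 0.38) and Vamp2 (0.46 ± 0.18) and the Rab3 genes measured did not pass.

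The call of Syt13, an atypical synaptotagmin, rested on the choice of probe. By its brighter probe Syt13 stood at -0.30 and -0.08 in CD24 high and at 3.002 and 4.16 in CD24 medium (3.77 ± 0.62, adjusted p = 0.00928). By its second probe it stood at 6.27 and 5.11 in CD24 high and at 1.56 and 1.33 in CD24 medium (-4.25 ± 0.35, adjusted p over all probes 0.000738). Both probes were well above background on all 4 arrays. The mean of the 2 probes gave -0.24. The sample channel alone gave -3.82, but that setting picks the brightest probe anew in that channel and may read the second probe. Syt13 therefore has no settled direction here.

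Ion channels and sensors of endocrine cells followed in part. Abcc8, the sulphonylurea receptor subunit of the ATP-sensitive potassium channel, stood at 0.95 and 0.40 in CD24 high and at 3.42 and 4.20 in CD24 medium (3.13 ± 0.55, adjusted p = 0.0118). Trpa1, an irritant channel of enterochromaffin cells, was at least 3.94-fold higher (adjusted p = 0.0452). Ffar2, a receptor of short-chain fatty acids, went from 1.36 and 1.17 to 2.26 and 2.73 (1.24 ± 0.21, adjusted p = 0.0114). Casr, the calcium-sensing receptor, was lower (adjusted p = 0.0362) and was well above background on neither CD24 medium array. Of 17 measured members 4 were higher and 1 lower, with a median of 0.36 that came to 0.19 in the sample channel and to 1.12 with processed signals. The calls of Abcc8, Trpa1, Ffar2 and Casr were each lost without at least 1 array.

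Alpha-defensins are the antimicrobial peptides of Paneth granules. Defa21 stood at 4.32 and 5.55 in CD24 high and at -3.97 and -3.07 in CD24 medium (-8.45 ± 0.48, adjusted p = 0.000199). Defa4 stood at 5.41 and 5.82 against -1.97 and -1.80 (-7.50 ± 0.27, adjusted p = 5.04e-05), and Defa20 at 5.13 and 5.39 against -1.58 and -1.62 (-6.85 ± 0.20, adjusted p = 4.57e-05). For these 3 genes the CD24 medium cells lay below whole small intestine and the CD24 high cells far above it. For Defa1, Defa3, Defa6, Defa22, Defa23 and Defa-rs12 both groups lay above the reference, with CD24 medium between 0.16 and 2.06 and CD24 high between 5.51 and 7.82. All 9 calls were kept whichever array was left out. Within slide 1 the median difference of the 10 measured members was -5.91 and within slide 2 it was -6.11. Defa-rs2 stood at 11.24 and 3.22 in CD24 high and at 7.62 and -0.07 in CD24 medium, and the replicates of a group differed by about 8 log2 units, so it did not pass, although it was lower by 3.62 within slide 1 and 3.30 within slide 2. Of 19 alpha-defensin names on the list 10 were matched on the array. With the sample channel alone the median was -2.26, and the summed sample signal of the 10 genes was 13450000 and 11540000 in CD24 high and 1281000 and 943800 in CD24 medium.

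Near-identical genes can share signal in this family. Among 14 measured defensin probes, 10 of 91 pairs matched at 85% identity or more over at least 30 bases, and those pairs covered 10 genes; 2 of the pairs were probes of 1 gene. The probes of Defa1 and Defa6 were 96.2% identical over 53 bases, and those of Defa1 and Defa23 were 94.3% identical over 35 bases. The values of single defensin genes are therefore uncertain as to which copy gave the signal. A stretch of 30 bases common to 3 probes shows how close they are, 5′ to 3′, with capitals at bases that differ from the Defa1 probe:
Defa1: atcgttgagagatctggtatgctattgtag
Defa6: atcAttgagagatctggtatgctattgtag
Defa23: atcgttgagagatctgAtatgctattgtag
The array design places the Defa6 probe within chr8:22845161-22845779 and the Defa23 probe within chr8:22194930-22195548 (mm9), each split over 2 blocks of its transcript.

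The other granule genes went the same way. Lyz1, the Paneth lysozyme, stood at 6.17 and 6.23 in CD24 high and at -0.50 and -0.02 in CD24 medium (-6.46 ± 0.28, adjusted p = 7.58e-05). Itln1, an intelectin, stood at 6.63 and 6.71 against 0.63 and 0.65 (-6.03 ± 0.15, adjusted p = 4.57e-05), and Ang4, an antimicrobial ribonuclease, at 4.25 and 4.25 against -1.57 and -2.42 (-6.25 ± 0.49, adjusted p = 0.000652). In each the groups were separated by more than 5 log2 units. Ang4 and Lyz2 passed by both of their probes. Mmp7, the protease that activates defensins, stood at 5.13 and 5.22 against 0.89 and 1.00 (-4.23 ± 0.15, adjusted p = 4.99e-05). The lipase genes Pnliprp2 and Clps were lower, with differences of -5.50 ± 0.29 and -4.73 ± 0.62, as was Pla2g2a, a secreted phospholipase, at -3.94 ± 0.18. The Reg3 lectins, which enterocytes also express, were below whole small intestine in both groups but for Reg3g on 1 array: Reg3g stood at -0.56 and 0.65 against -3.33 and -2.97, Reg3b at -3.85 and -4.02 against -5.14 and -4.80, and Reg3a at -2.90 and -2.74 against -3.73 and -3.57. All 15 measured genes were lower, and 13 kept the call whichever array was left out, Reg3a and Reg3b being the exceptions. The group's median was -4.37, or -2.60 with the sample channel alone.

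Regulators and niche signals of Paneth cells did not move as 1 block. Spdef, the factor that matures Paneth and goblet cells, stood at 3.66 and 3.54 in CD24 high and at 3.74 and 3.25 in CD24 medium, and Kit, a surface marker of these cells, at 2.03 and 1.79 against 2.04 and 1.94. Both overlapped. Gfi1, Xbp1, Fgfr3 and Dll4 also did not pass, with differences of 0.74, -0.79, 0.10 and 1.06. Sox9, which Paneth cells need, was lower (2.18 and 1.66 against 0.80 and 0.34, -1.35 ± 0.24, adjusted p = 0.0123). Among signals to stem cells, Wnt11 stood at 3.38 and 4.96 against -0.44 and -0.46 (-4.61 ± 0.46, adjusted p = 0.00164), Wnt3 at 4.80 and 4.68 against 2.19 and 2.62 (-2.33 ± 0.26, adjusted p = 0.00241) and Egf at 2.41 and 1.80 against 0.34 and 0.09 (-1.89 ± 0.26, adjusted p = 0.00492). These 3 ligands were higher in CD24 high on both slides. Wnt3 remained above whole small intestine in CD24 medium, while Wnt11 did not. Tgfa and Ephb3 were also called lower, by probes with a stretch described further on. Of 21 measured members 7 were lower and 0 higher, with a median of -0.11, which turned to 0.06 with the sample channel alone and 0.08 without the probes of that stretch.

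**Figure D3:**
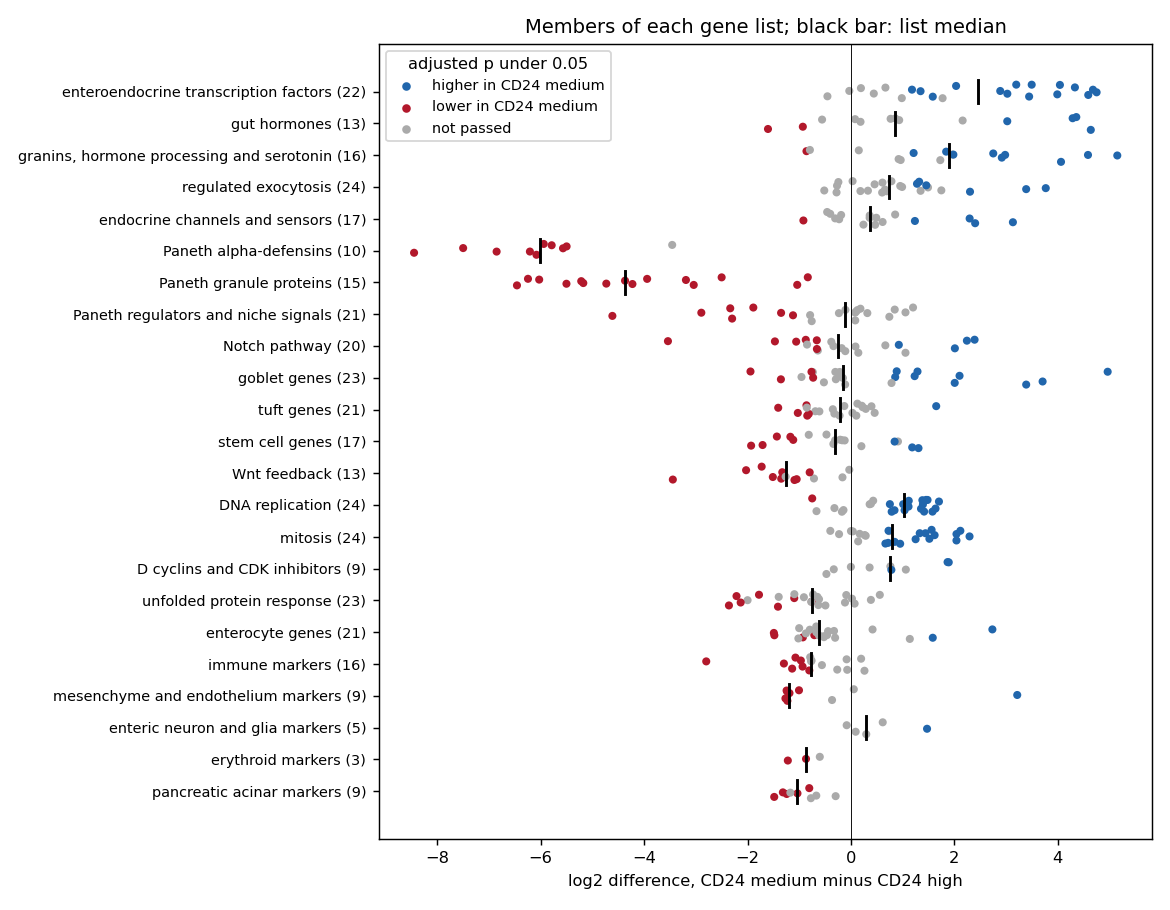
Difference between CD24 medium and CD24 high (log2, horizontal axis) of every measured member of 23 gene lists (number measured in parentheses), coloured by whether it passed an adjusted p under 0.05; the black bar is the list median. Enteroendocrine, replication and mitosis lists lie mostly to the right of 0, the alpha-defensin, Paneth granule and Wnt feedback lists to the left, and the Paneth regulators on both sides.

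Notch signalling passes from ligands on 1 cell to receptors on its neighbour, and Fringe enzymes change which ligand a receptor prefers. Beside Dll1, the Notch-like ligand Dner was at least 3.19-fold higher in CD24 medium (adjusted p = 0.0106). Dll3 was lower (3.31 and 1.99 against 1.26 and 1.09, -1.47 ± 0.40, adjusted p = 0.0451) and Dll4 and Jag1 did not pass. The Fringe genes differed in direction. Mfng stood at -0.12 on CD24 high replicate 1 (its spot on replicate 2 was an outlier and was left out of the fit) and at 1.55 and 2.70 in CD24 medium (2.24 ± 0.47, adjusted p = 0.0274, with the 1 CD24 high array assumed to vary like the other groups), and Lfng at 0.59 and 0.31 against 1.503 and 1.25 (0.93 ± 0.20, adjusted p = 0.0208). Rfng stood at 4.94 and 3.96 against 1.08 and 0.75 (-3.54 ± 0.32, adjusted p = 0.00115). The receptors Notch2 and Notch4 were lower, with differences of -1.06 ± 0.24 and -0.87 ± 0.16, although Notch2 was well above background on neither CD24 high array. The target Hes1 had a difference of -0.66 ± 0.18 (adjusted p = 0.0456), and Heyl was at least 1.48-fold lower (adjusted p = 0.0349). Of 20 measured genes 4 were higher and 6 lower. The median of -0.26 turned to 0.06 with the sample channel alone and to 0.30 with the processed signals, and of these only the calls of Dll1, Dner and Rfng were kept whichever array was left out.

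Goblet cell genes differed in both directions, 9 higher and 4 lower of 23. Clca1 and Zg16, secreted with mucus, stood at -1.64 and -5.06 and at -2.73 and -3.78 in CD24 high, and at 2.63 and 0.61 and at 0.73 and 0.17 in CD24 medium (4.97 ± 1.23, adjusted p = 0.0348; 3.71 ± 0.63, adjusted p = 0.0108). Fcgbp, a mucus protein, went from -0.49 and -0.93 to 2.79 and 2.57 (3.39 ± 0.27, adjusted p = 0.000652), with 3.98 by its second probe, and Bcas1 was higher by 2.10 ± 0.25. Tff3 and Agr2 were above whole small intestine in both groups and higher in CD24 medium by 1.29 ± 0.25 and 1.23 ± 0.23. Muc2, the gel-forming mucin, had 3 probes that gave -0.74 ± 0.30, 0.42 ± 0.32 and 1.30 ± 0.32, of which only the last passed (adjusted p over all probes 0.0362). Among the lower ones, Spink4, a secreted peptidase inhibitor of goblet cells, stood at 5.64 and 5.51 against 3.79 and 3.47 (-1.94 ± 0.21, adjusted p = 0.00229), but in the sample channel its difference turned to 0.23. Qsox1, a sulphydryl oxidase, stood at 4.34 and 4.27 against 2.90 and 3.01 (-1.35 ± 0.16), and Creb3l4 and Tspan13 had differences of -0.76 and -0.73. The list median was -0.16, and 0.23 in the sample channel, where Spink4 is its middle member. The calls of Bcas1, Fcgbp, Qsox1 and Spink4 were kept whichever array was left out.

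Tuft cell genes gave 1 higher and 5 lower of 21. Gng13, a taste-type G protein subunit, was the 1 higher (0.58 and 0.27 against 2.57 and 1.57, 1.65 ± 0.33, adjusted p = 0.0169), while the defining markers Dclk1, Trpm5 and Pou2f3 did not pass. None of the 6 calls was kept whichever array was left out. Stem cell genes gave 3 higher and 5 lower of 17. Beside Lgr5, Smoc2 (2.30 and 2.21 against 0.69 and 0.95) and Tnfrsf19 (-1.27 and -1.77 against -3.18 and -3.29) were lower, whereas Mex3a (-1.05 and -0.82 against 0.23 and 0.52, dim on both CD24 high arrays) was higher, and Olfm4 (-0.82 ± 0.26) and Ascl2 (-0.31 ± 0.17) did not pass. The list median was -0.31, and the calls of Lgr5, Msi1 and Tnfrsf19 were kept whichever array was left out.

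The Wnt feedback list holds negative feedback genes and other targets of the Wnt pathway, such as Lef1, Tcf7 and Myc, so not every member dampens it. Nkd1 stood at -0.92 and -1.01 in CD24 high and at -4.56 and -4.25 in CD24 medium (-3.45 ± 0.17, adjusted p = 0.000129). Of 13 measured genes 9 were lower and 0 higher, with a median of -1.26, or -1.09 with 2 members at their bound. In the sample channel that median came to -0.59 and 6 of the 9 calls were kept. Notum, Rnf43, Znrf3 and Sp5 were among the lower ones, with differences from -1.35 to -0.80, and Dkk3 was at least 3.49-fold lower. Axin2, Myc and Apcdd1 did not pass. Most members were below whole small intestine in both groups, and the calls of Nkd1, Notum and Dkk3 were kept whichever array was left out.

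Cell cycle genes were mostly higher in CD24 medium but near or below the level of whole small intestine. Mki67, a marker of cycling cells, stood at -1.94 and -2.58 in CD24 high and at -0.03 and -0.41 in CD24 medium (2.04 ± 0.26, adjusted p = 0.00396). On the CD24 low arrays Mki67 stood at 0.56 and 0.36. Cdc20, an activator of mitotic exit, stood at -1.50 and -2.19 against 0.30 and 0.60 (2.29 ± 0.25, adjusted p = 0.00241), and Birc5 at -2.04 and -3.13 against -0.36 and -0.57 (2.12 ± 0.34, adjusted p = 0.00876). Of 24 measured mitosis genes 15 were higher and 0 lower, with a median of 0.79, and 10 of the 15 calls were kept whichever array was left out. Of 24 DNA replication genes 16 were higher and 1 lower, with a median of 1.02. Uhrf1, Mcm6, Mcm4 and Mcm7 led them, with differences of 1.70, 1.64, 1.58 and 1.48, and Mcm10, Rrm1 and Tk1 were the 3 whose calls were kept whichever array was left out. The 1 lower gene, Pcna, the sliding clamp of replication, was read by a probe with a stretch described further on. Both lists had larger medians with the processed signals, 2.22 for mitosis and 1.70 for replication. Among D cyclins and inhibitors, 3 of 9 were higher and 0 lower. Cdkn1c, an inhibitor of cyclin-dependent kinases, was higher (-0.65 and -0.59 against 0.70 and 1.84, 1.89 ± 0.48, adjusted p = 0.0362), as were Ccnd2 by all 3 of its probes (1.87, 2.59 and 2.46) and Cdkn2d, whose difference of 0.78 turned to -0.16 with the sample channel alone.

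Genes of the unfolded protein response, which secretory cells use to fold cargo, gave 0 higher and 7 lower of 23, with a median of -0.76. The median was -0.40 without CD24 high replicate 1 and -0.41 without CD24 medium replicate 2. Dnajc3 stood at 2.58 and 2.12 in CD24 high and at 0.42 and -0.44 in CD24 medium (-2.36 ± 0.34, adjusted p = 0.00618), Herpud1 at 4.11 and 3.38 against 1.83 and 1.24 (-2.21 ± 0.32, adjusted p = 0.00634) and P4hb at 2.93 and 3.18 against 1.00 and 0.84 (-2.13 ± 0.16, adjusted p = 0.000596). Most of these genes were above whole small intestine in both groups. The chaperone Hspa5, at 3.36 and 1.89 against 2.08 and 0.98, did not pass (adjusted p = 0.206). Its difference was -1.28 within slide 1 and -0.91 within slide 2.

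The brightest probe of a gene gave the values above, and further probes were used to check it. Of 428 higher genes with more than 1 measured probe, all further probes passed the same way in 122 (28.5%), a further probe passed the opposite way in 10, and all further probes had the same sign in 342 (79.9%). Of 740 lower genes the numbers were 213 (28.8%), 7 and 559 (75.5%). Over all probes taken singly, 6.81% were higher and 12.1% lower. Counting only further probes well above background on both arrays of the group with the higher level, 131 of 396 higher genes (33.1%) and 213 of 560 lower genes (38.04%) had all of them past the threshold. The median difference of the higher genes went from 0.92 by the brightest probe to 0.45 by further probes, and that of the lower genes went from -1.05 to -0.48.

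Higher genes that passed by every probe included Lgals4, a galectin of the epithelium, which stood at -2.53 and -3.12 in CD24 high and at 0.52 and 0.06 in CD24 medium (3.11 ± 0.26, and 3.004 by the second probe). Cotl1, an actin-binding protein, gave 2.82 and 2.26 by its 2 probes, Prodh2, a hydroxyproline dehydrogenase, 2.36 and 2.40, Id4, an inhibitor of basic helix-loop-helix factors, 2.22 and 2.20, and Kif12, a kinesin, 2.00 and 1.91. Pim2, a kinase, gave 2.00, 2.18 and 1.88 by 3 probes, and Lhx1, a LIM homeodomain factor, 3.05 and 1.84. Among the lower genes Ggh, gamma-glutamyl hydrolase, stood at 2.23 and 2.14 in CD24 high and at -1.82 and -1.69 in CD24 medium (-3.94 ± 0.16, and -3.92 by the second probe). Klf15, a Krüppel-like factor, gave -3.48 and -3.05, Slc1a4, a neutral amino acid transporter, -2.79 and -2.47, Rnase1, a secreted ribonuclease, -2.40 and -2.87, Cgnl1, a junction protein, -2.65 and -2.37, and Bmp7, a BMP ligand, -2.25 and -2.09. Tph1, St18, Pyy, Cpe and Nkd1 have 2 measured probes each and were not among these leading genes. Their second probe either did not pass in that direction or gave a smaller difference, under 1.82 for the first 4 and nearer 0 than -2.09 for Nkd1. Among higher genes read by a single probe, large differences outside the lists were those of Gfra3, a GDNF-family receptor (0.25 and 0.14 against 5.10 and 6.03, 5.37 ± 0.74), Celf3, an RNA-binding protein (0.49 and 0.09 against 4.74 and 6.05, 5.10 ± 0.72) and Rimbp2, a presynaptic scaffold protein, at least 28.1-fold higher. Scin, an actin-severing protein, stood at -2.40 and -3.63 against 2.20 and 1.39 (4.81 ± 0.45).

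**Figure D4:**
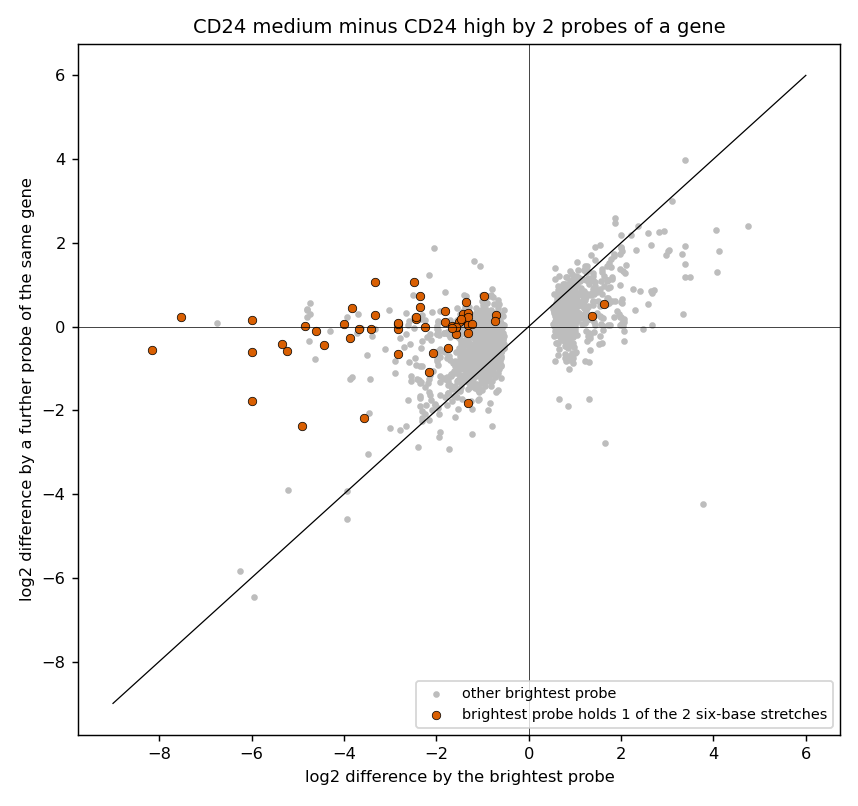
Difference between CD24 medium and CD24 high (log2) by the brightest probe of a called gene (horizontal axis) and by each further probe of the same gene (vertical axis), with the line of equality. Genes whose brightest probe holds GTGCCC or GCCGCC (orange) reach below -4 on the horizontal axis while most of their further probes lie near 0; the grey point at the lower right is Syt13.

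The 8 largest calls that a further probe did not bear out were all lower in CD24 medium, and Prm1, Krtap19-1, Ankrd9, Spon2, Slc6a13, Inpp4a and Bcr were among them. Prm1, a sperm protamine, stood at 4.59 and 5.77 in CD24 high and at -3.55 and -2.41 in CD24 medium by its brightest probe (-8.16 ± 0.56), but at 2.33 and 2.91 against 2.06 and 2.08 by its second. Krtap19-1, a hair keratin associated protein, gave -7.53 by 1 probe and 0.24 by the other, and Inpp4a gave -4.83 and 0.02. Ankrd9 gave -6.74 and 0.08, and the brightest probe of Bcr gave -4.80 while the 3 others gave 0.39, 0.42 and 0.23. The low values of these genes therefore held for 1 probe each.

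Short base stretches in the probes went with such calls. Of 3966 stretches of 6 bases found in at least 50 measured probes, read along the probe strand only, GTGCCC (241 probes, median difference -1.22) and GCCGCC (99 probes, -0.86) had the lowest medians, followed by TGCCCG at -0.41. These 2 were picked after their values were seen, so their medians are a description. Of the probes with GTGCCC 51.9% were called lower, and of those with GCCGCC 43.4%. Together the 340 probes were 1.39% of measured probes and 32.4% of the 219 probes lower by more than 8-fold. Of 44 lower genes whose brightest probe held 1 of them, all further probes passed the same way in 2 (4.55%), and the median went from -2.35 by the brightest probe to 0.04 by further probes. Stretches of 30 bases of such probes are shown, 5′ to 3′, with the 6 bases in capitals, since the pattern rests on them. First come genes of the gene lists whose call rests on 1 such probe, then genes with a large difference:
Pcna: atgtctgcagatGTGCCCcttgttgtagag
Gal: tgttgatGTGCCCctgcctgagagcaacat
Ephb3: ggagatatgGTGCCCcatcctgaagccagc
Tgfa: ttagtttgtcatGTGCCCcagaaaaaggtg
Spon2: aagaggccgagtGTGCCCcagataactgcg
Inpp4a: tgtacatcttgtGTGCCCtgtttcaagaga
Slc6a13: acacattgtgacGTGCCCgaatcaataaca
Prm1: gatgctgccgtcGCCGCCgctcatacacca
Krtap19-1: atggatgtggctGCCGCCgcccttcatgct
Gp1bb: ggcgctgcgactGCCGCCtattgccgctgc
In the mm9 positions of the array design, the probe of Pcna lies within chr2:132075420-132075557, that of Gal at chr19:3411143-3411202, that of Ephb3 at chr16:21223025-21223084, that of Tgfa at chr6:86224838-86224897, that of Spon2 at chr5:33557103-33557162 and that of Prm1 within chr16:10796597-10796748. The brightest probes of Ankrd9 and Bcr hold neither stretch.

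The signal of these 340 probes set the CD24 high arrays apart in the sample channel. Their median log2 intensity, minus the median of all measured probes on the same array, was 2.13 and 2.47 on the CD24 high arrays, 0.21 and 0.28 on the CD24 medium arrays and 0.18 and 0.22 on the CD24 low arrays. In the reference channel of the same arrays it was -0.07 and 0.10, -0.32 and -0.32, and -0.14 and -0.17. In the reference channel the CD24 high arrays were thus also the 2 highest of these 6 arrays, by smaller margins than in the sample channel. Without these probes 1309 genes were higher and 2190 lower, a setting added after the data were seen. No member of the enteroendocrine factor, defensin, granule, mitosis or Wnt feedback lists was read by such a probe. The values of Pcna (-0.53 and -0.18 against -0.97 and -1.24), Gal, Ephb3 (3.95 and 3.72 against 1.35 and 1.72) and Tgfa (2.08 and 2.70 against -0.48 and -0.54) rest on 1 such probe each, and what part the stretch has in them was not tested.

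**Figure D5:**
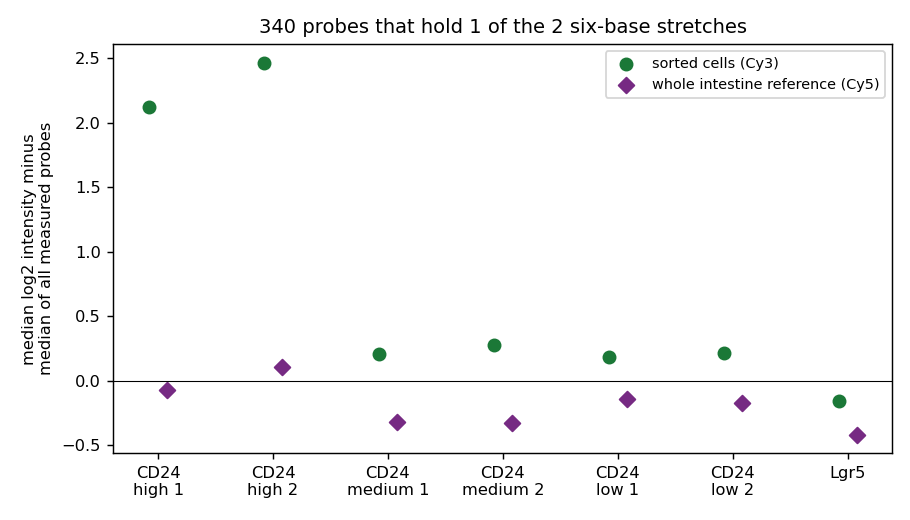
Median log2 intensity of the 340 probes that hold GTGCCC or GCCGCC, minus the median of all measured probes, on each of the 7 arrays, for sorted cells (circles) and the whole intestine reference (diamonds). The circles of the 2 CD24 high arrays lie at 2.13 and 2.47 and all other points between -0.42 and 0.28.

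Markers of other cell types were mostly below whole small intestine in both groups. Of 16 immune markers 7 were lower in CD24 medium, with a median of -0.78 that shrank to -0.07 with the sample channel alone and to -0.19 with the processed signals. Cd52, a leukocyte surface protein, stood at -2.21 and -2.08 against -3.29 and -3.29. The B cell marker Cd79a stood near 0 in both groups. Of 9 mesenchymal and endothelial markers 6 were lower, among them Tagln, Des and Col3a1 with differences of -1.27, -1.24 and -1.23, and the median of -1.19 became 0.02 with the sample channel alone. Vim, a filament protein, was the 1 higher (-4.28 and -3.48 against -1.65 and 0.33, adjusted p = 0.0345). The summed sample signal of the immune markers ranged from 39600 to 41050 in CD24 high and from 30300 to 32620 in CD24 medium, and that of the mesenchymal markers from 14540 to 15680 and from 12450 to 21150. Of 9 pancreatic acinar markers 5 were lower, of 3 erythroid markers 2 were lower, and of 5 enteric neuron and glia markers Tubb3 was higher and Sox10, S100b, Elavl4 and Prph did not pass. Of 21 enterocyte genes 2 were higher, Krt20 (-5.75 and -5.59 against -3.02 and -2.84) and Fabp2, and 4 lower, and all 21 were below whole small intestine in every sample of both groups. Their part in the differences above was not tested.

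A low spot limits some of these calls. Of the 1318 higher genes all were well above background on both CD24 medium arrays, and 165 were so on neither CD24 high array. Of the 2335 lower genes 2152 were well above background on both CD24 high arrays and 110 on neither.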

How the data were processed

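RNA of sorted cells (Cy3) and of whole mouse small intestine (Cy5) was hybridised to 2-colour Agilent arrays with 41174 gene probes of 60 bases. The deposited scanner files hold a spot intensity on a linear scale for each channel, read with Agilent Feature Extraction 10.5.1.1 per the file headers. The deposited table of log10 ratios holds, with its sign turned, the log10 ratio of those files (largest difference 5e-06), so it is Cy3 over Cy5. It was used as an alternative after conversion to log2.

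With limma 3.58.1 in R 4.3.3, mean intensities were background corrected (normexp, offset 50) and normalized by loess within each array (span 0.3). Control spots had weight 0. Probes well above background in the sample channel, as the scanner software scores it, on at least 2 of 7 arrays were kept (24495), and the brightest gave the value of its gene. All 7 arrays entered 1 fit with a mean per group. No dyes were swapped, so a dye effect cancels only between groups. Figures were drawn with matplotlib 3.10.9.

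Gene symbols of 26918 probes came from matching the RefSeq accession, and the other 14256 probes carry the array design's own symbol, which can be old. Probe positions are those of the array design (mm9, per the file headers).

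The fit was tested on simulated data for CD24 medium against CD24 high with 17537 genes: it recovered 61 of 100 genes changed by 1 log2 unit and 99 of 100 changed by 2, with 20 unchanged genes called. Far fewer genes were changed there than the 3653 called in the data, so these counts do not give the error rate of those calls.

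The members and the gene lists were chosen with earlier results of these data known, and the lists are described by counts and medians, with no test. Genes were named by rule: the 12 in each direction with every probe past the threshold and the largest smallest difference, the 8 in each direction read by 1 probe with the largest difference, the 8 largest calls not borne out by a further probe, up to 4 leading members of each list, any member of the endocrine, Paneth and Notch lists, and Cd24a, Dll1, Lgr5 and Atoh1. Other genes were named after their values were seen. Clones, predicted genes and unnamed identifiers were passed over, and a few items that the rule names are not reported here. Alternatives varied the background correction, signal, normalization, probe filter, choice of probe, slide, replicate block, arrays fitted and spread. Those without probes of the 6-base stretches, and with outlier spots of either channel left out, and the repeats of the probe agreement, were added after the data were seen.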

Additional observations from a re-analysis of the deposited data

How the results depend on the processing

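The count of higher genes, 1318 here, was 3000 with the processed signals, 3005 with the deposited ratio table and 2216 with the sample channel alone, and 328 to 1562 when 1 array was left out. The count of lower genes, 2335 here, was 933 to 2416 when 1 array was left out and stayed within 1.5 times under the other alternatives run. The number of called genes whose further probes all passed the same way, 335 here, was 214 with an offset of 16, 516 with the processed signals, 517 with the deposited table and 78 to 373 when 1 array was left out. Leaving out a CD24 low array leaves 1 low array, assumed to vary like the other groups. Same-numbered CD24 high and CD24 medium arrays share a slide but no pairing given by the labels. Their deviations correlated at 0.3 over 17396 genes, with 2 pairs. CD24 low replicate 1 lay on the slide of the replicates numbered 2. With the replicate number as a block 1504 genes were higher and 2514 lower, and probes agreed in 391 genes. Among the genes named, the direction turned with the sample channel alone for Cdkn2d (-0.16), Pam (0.69), Spink4 (0.23) and Syt13 (-3.82). With the mean of its probes it turned for Syt13 (-0.24). Without the probes of the 6-base stretches it turned for Inpp4a (0.024) and Krtap19-1 (0.24), which are read there by another probe. The sample channel setting picks the brightest probe anew in that channel, so Syt13 and Pam, with 2 probes each, may also be read by another probe. Otherwise the cause was not tested. Low signal limits the levels of genes dim in 1 group.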

Other observations

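Endocrine genes stood higher on CD24 medium replicate 2 than on replicate 1. Of the 75 measured members of the enteroendocrine factor, hormone, granin and exocytosis lists 69 (92.0%) did so, with a median gap of 0.95 log2 units, against 54.2% of all genes. The same members were higher on CD24 low replicate 2 than on CD24 low replicate 1 in 62 of 75 cases (82.7%, median gap 0.60), against 51.6% of all genes. The direction was not particular to endocrine genes: 13 of 15 Paneth granule genes and 19 of 21 enterocyte genes were also higher on CD24 medium replicate 2. Their median gaps were smaller, at 0.24 and 0.27. Between the CD24 low arrays the median gap was 0.06 for Paneth granule genes and -0.46 for enterocyte genes. Of 23 goblet genes 3 were higher on CD24 medium replicate 2, of 24 DNA replication genes 2 and of 23 unfolded protein response genes 1. The CD24 medium arrays lay on different slides and both CD24 low arrays on 1 slide. The members share their libraries, so these counts describe 4 arrays.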
